A study of Homo sapiens with 36 samples.

Results

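LNCaP/Empty, the empty-vector line of the androgen-sensitive prostate cancer cell LNCaP, was compared between acute R1881 and Normal on 5 arrays with R1881 and 6 Normal arrays. These 11 of the 36 arrays were chosen by their clone and treatment labels. R1881 is a synthetic androgen that cells break down slowly. The R1881 cells were kept for 96 h in charcoal-stripped serum, which removes steroids, and then received 1 nM R1881 for 4 h. The 5 vehicle arrays of the same line received 0.01% ethanol after the same 96 h and are given as the starting level. The labels do not define Normal. They give the same stripped-serum text to every array, and the study cultured LNCaP in fetal calf serum as its standard, so that the serum of the Normal cells is not settled here. HIF12, a LNCaP clone that stably expresses HIF1a, was used only where a group without arrays in common was needed, with 5 arrays each for R1881, vehicle and Normal. LNCaP/Empty and HIF12 are 1 transfected line each. Whether the replicate arrays stem from separate cultures is not stated anywhere, so the p-values measure the spread between these arrays, which may be technical.

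The androgen receptor is a nuclear receptor that binds androgen, moves to the nucleus and binds androgen response elements near its target genes. In prostate cells it drives the secreted kallikreins and many genes of secretion, lipid supply and growth, and it lowers others. Charcoal-stripped serum takes away androgens and also other steroids, thyroid hormone and lipid-bound factors. A level under R1881 can therefore lie at, above or below that of Normal cells, and the comparison asks which genes fall where.

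Between 15374 and 17839 of 48105 probes were detected on each array of the series, with 16046 to 17012 on the R1881 arrays and 16177 to 16757 on the Normal arrays. Across probes, the R1881 arrays correlated with each other at 0.989 to 0.992, the Normal arrays at 0.99 to 0.993 and the arrays of both groups with each other at 0.984 to 0.987. The nearest neighbour of 35 of the 36 arrays lay in its own group, and the exception was a Normal array of HIF49, another HIF1a clone. The luminal prostate genes FOXA1, HOXB13, KLK3, KRT8 and KRT18 were detected on all 11 arrays. None of 3 basal, 5 stromal and 4 leukocyte markers was detected on any of them, and of the endothelial markers VWF was detected on all 11, at 7.78 ± 0.28 with R1881 and 8.33 ± 0.42 in Normal with a difference that did not pass, while PECAM1 and CDH5 were not detected.

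R1881 left 732 genes above Normal and 682 below it, 3.65% and 3.4% of 20045 genes tested. Vehicle, set against the same Normal arrays, had 660 genes above Normal and 588 below it, 3.29% and 2.93%. A gene passed with a limma adjusted p under 0.05 and a difference of 1.5-fold or more on any of its probes. Levels are log2 normalized intensities, and differences are R1881 minus Normal on that scale. Of 9449 genes with a probe detected on every array of either group, 7.04% were higher and 6.58% lower. MINDY1 and UGT2B11 passed in both directions on different probes. The median difference over all genes was -0.01. When arrays were scaled to a common median in place of quantile normalization, the counts were 539 higher and 1071 lower, so that higher genes made up 33.5% of the calls, against 51.8%. Without background correction 368 genes were higher and 252 lower.

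The largest increase was that of SGK1, a kinase induced by glucocorticoids and androgens. SGK1 stood at 11.12, 11.21, 11.04, 10.96 and 11.24 on the R1881 arrays, and at 6.77, 6.96 and 7.12 as the lowest, median and highest of the Normal arrays. Vehicle averaged 6.62 ± 0.20 (SD, n = 5). R1881 was thus 17.9-fold above Normal (log2 4.16 ± 0.14 SE, limma adjusted p = 2.9e-21), 3 of its 4 probes passed, and the groups were far apart. In bulk RNA, fewer cells with a transcript and less of it per cell cannot be told apart.

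ORM1 and ORM2 encode the plasma glycoproteins orosomucoid 1 and 2. ORM1 reached 8.68, 8.43, 8.51, 8.70 and 8.84 with R1881 and was detected on no vehicle and no Normal array. It was at least 6.64-fold above Normal, where the bound sets the R1881 mean against the detection limit of the Normal arrays. ORM2 averaged 7.51 ± 0.30 with R1881 (n = 5) and was likewise undetected in vehicle and Normal, which gives at least 3.06-fold. The 2 genes are near copies, and the array may not separate them.

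TIPARP, an ADP-ribosyltransferase, stood at 10.81, 11.03, 10.92, 10.96 and 11.07 with R1881, while Normal ran from 7.29 to 7.70 with a median of 7.56. All R1881 arrays were higher, by 10.9-fold on average (adjusted p = 4.5e-22). SNAI2, the zinc finger repressor known as Slug, averaged 8.89 ± 0.16 with R1881 and 4.65 ± 0.08 with vehicle, against 5.6 ± 0.55 in Normal. The fitted increase was 9.76-fold, with SNAI2 detected on 2 of 6 Normal arrays, so that the Normal mean is mostly not well above background. For none of these 5 genes was vehicle called above Normal, and SNAI2 was called lower with vehicle (log2 -0.96).

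Of the other genes among the 10 largest increases, DDC, PLA2G2A, BRDT and SNORA12 had vehicle means at or above those with R1881. DDC, which makes dopamine and serotonin from their precursors, averaged 12.35 ± 0.13 with R1881 and 12.56 ± 0.13 with vehicle, against 9.63 ± 0.24 in Normal. PLA2G2A, a secreted phospholipase, averaged 9.47 ± 0.10 with R1881, 9.57 ± 0.11 with vehicle and 6.65 ± 0.35 in Normal. BRDT, a bromodomain protein of the testis, averaged 8.36, 8.56 and 5.67 in the same order, and the small nucleolar RNA SNORA12 averaged 8.74, 8.75 and 5.85. In Normal, BRDT was detected on 3 of 6 arrays and SNORA12 on 2 of 6. IGFBP3, which binds insulin-like growth factors, stood at 11.09, 10.56, 10.41, 11.06 and 10.77 with R1881 and at 7.00, 7.29 and 7.86 as the lowest, median and highest of Normal. Its vehicle level of 9.85 ± 0.76 lay between them, and R1881 was 10.9-fold above Normal and 1.90-fold above vehicle (adjusted p = 0.04).

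All of the 10 largest decreases were also low in vehicle. S100P, a calcium-binding protein, stood at 6.76, 6.11, 6.19, 6.05 and 5.94 with R1881, averaged 6.30 ± 0.31 with vehicle, and ran from 8.93 to 9.35 in Normal with a median of 9.22. R1881 was 7.85-fold below Normal (log2 -2.97 ± 0.15 SE, adjusted p = 9.7e-17). MSMB, which encodes beta-microseminoprotein, one of the main secreted proteins of the prostate, was detected on no R1881 and no vehicle array and ran from 7.32 to 7.64 in Normal. Its level with R1881 was at least 2.98-fold below Normal (adjusted p = 4.9e-20).

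TM4SF1, a membrane protein, averaged 9.26 ± 0.08 with R1881 and 11.54 ± 0.13 in Normal, which is 4.87-fold lower. The actin of smooth muscle ACTA2 was 3.72-fold lower at 8.46 ± 0.22 with R1881, against 10.36 ± 0.15 in Normal. ACTG2, the related gamma actin, was at least 1.62-fold lower because no R1881 array detected it. AGR2, a protein disulfide isomerase of secretory cells, averaged 7.66 ± 0.29 with R1881, 8.13 ± 0.15 with vehicle and 9.58 ± 0.34 in Normal. VGF, a neuropeptide precursor, was 3.68-fold lower, and the matrix protease MMP7 and the butyrophilin BTN3A2 were at least 1.90-fold and 2.22-fold lower. IQGAP2, a scaffold of the actin skeleton, averaged 5.65 ± 0.32 with R1881 and 7.43 ± 0.10 in Normal. The vehicle comparison shares its Normal arrays with the R1881 comparison, so the low levels of both are a description.

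**Figure D1:**
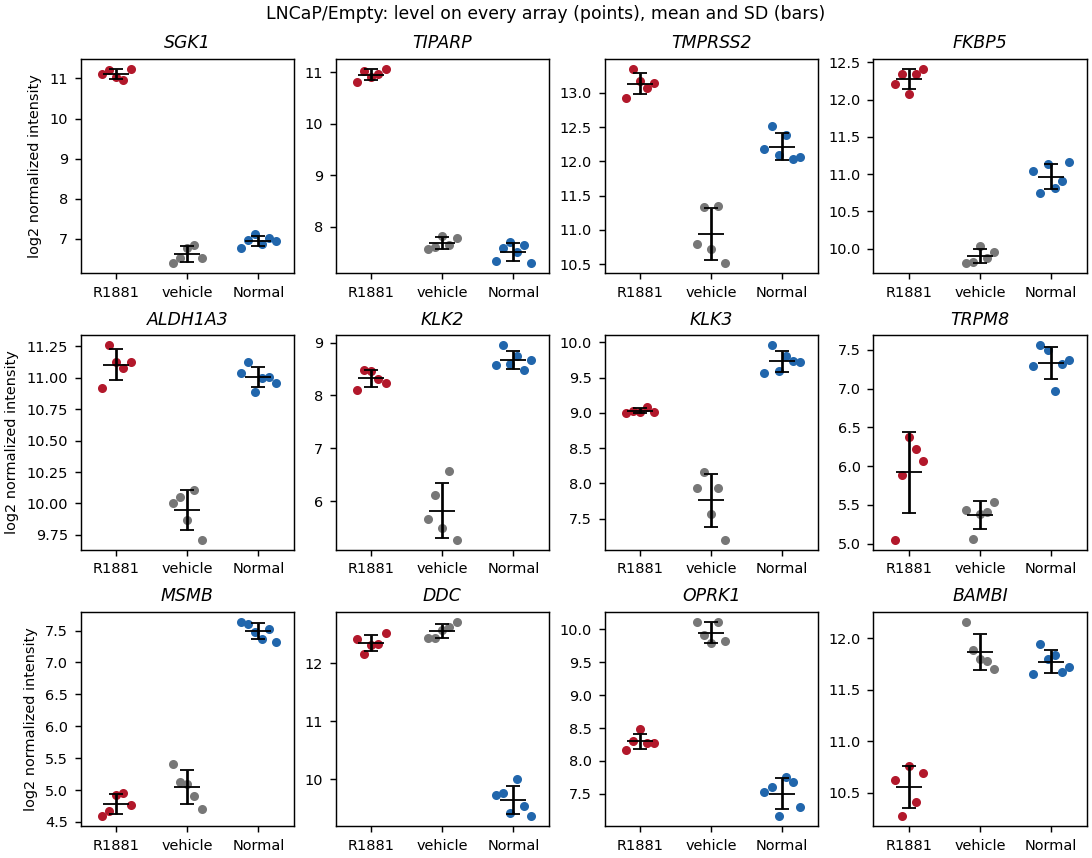
Levels of 12 genes in LNCaP/Empty on a log2 scale, with 1 point per array for R1881 (n = 5), vehicle (n = 5) and Normal (n = 6) and bars for mean and SD. SGK1, TIPARP, TMPRSS2 and FKBP5 with R1881 lie above every Normal array, ALDH1A3 and KLK2 overlap Normal, KLK3, TRPM8, MSMB and BAMBI lie below it, and DDC and OPRK1 lie above it, with higher means still in vehicle.

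Of the kallikreins KLK2 and KLK3, serine proteases of semen that mark androgen action in the prostate, neither was called above Normal after 4 h. KLK3 was called below it and KLK2 did not pass. Their promoters are printed here because KLK3 holds the androgen response element best known from this gene, and PMEPA1, an inhibitor of TGF-beta signalling, is added as an androgen target above Normal, at 11.09 ± 0.09 with R1881, 9.12 ± 0.24 with vehicle and 10.28 ± 0.03 in Normal. PMEPA1 was chosen after its values were seen. Each line is the element with up to 20 bases on either side from RefSeq (GRCh38.p14), 5′ to 3′ on the strand of the gene, with the element in capitals:
KLK3: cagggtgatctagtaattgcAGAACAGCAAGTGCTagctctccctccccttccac
KLK2: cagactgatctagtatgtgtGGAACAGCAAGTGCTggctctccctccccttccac
PMEPA1: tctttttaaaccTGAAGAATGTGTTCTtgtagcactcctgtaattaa
The windows are chr19:50854725-50854779 for KLK3, chr19:50873243-50873297 for KLK2, both on the plus strand, and chr20:57710781-57710827 on the minus strand for PMEPA1. The element searched on both strands was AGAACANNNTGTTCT, in the 250 bases before the start. KLK3 and PMEPA1 differ from it at 2 of 12 defined positions and KLK2 at 3, which is its nearest match. With up to 2 differences allowed, 1.18% of 35116 RefSeq promoters hold a match, and 12.4% hold its left arm AGAACA on either strand. A match is a description of the letters. Of the 214 genes that R1881 raised in HIF12, only 163 had a promoter to search, with 262 promoters among them. Of those promoters, 1.53% held a match and 7.25% held the left arm. The difference from all promoters was not tested, so the 3 windows printed show no link between element and response.

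KLK3 stood at 9.00, 9.03, 9.01, 9.09 and 9.01 with R1881, and at 9.56, 9.73 and 9.96 as the lowest, median and highest of Normal. Vehicle averaged 7.76 ± 0.38. The R1881 arrays were all below the Normal arrays, by 1.63-fold (log2 -0.70 ± 0.14 SE, adjusted p = 3.5e-04). KLK2 stood at 8.10, 8.49, 8.47, 8.32 and 8.23 with R1881 and averaged 5.82 ± 0.52 with vehicle, and Normal ran from 8.48 to 8.95 with a median of 8.63. Its groups overlapped and the difference of -0.35 did not pass (95% confidence interval -0.76 to 0.06, adjusted p = 0.37). That interval reaches past 1.5-fold below Normal, so KLK2 is not shown to be at Normal. KLK4, another kallikrein of the prostate, averaged 12.78 ± 0.09 with R1881 and 12.51 ± 0.06 in Normal, a difference of 1.21-fold with an adjusted p of 0.0024 that is smaller than the 1.5-fold asked for. KLK2 and KLK3 are close in sequence, so that their probes may share signal.

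Other well-known androgen targets were driven past Normal. TMPRSS2, a membrane serine protease and the usual 5′ partner of ERG fusions, stood at 12.93, 13.35, 13.17, 13.07 and 13.14 with R1881, averaged 10.94 ± 0.38 with vehicle, and ran from 12.03 to 12.52 in Normal with a median of 12.14. R1881 was 1.89-fold above Normal (adjusted p = 2.6e-04), without overlap. FKBP5, a co-chaperone of steroid receptors, averaged 12.28 ± 0.13 with R1881 and 9.90 ± 0.10 with vehicle, against 10.97 ± 0.17 in Normal, which is 2.48-fold higher. SLC45A3, the transporter prostein, averaged 12.83 ± 0.07 with R1881, 11.20 ± 0.22 with vehicle and 12.23 ± 0.10 in Normal, at 1.52-fold. Its call was lost at 1.49-fold without R1881 replicate 2 or without Normal replicate 4, and at 1.42-fold under median scaling.

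Genes that R1881 raised in HIF12 were then placed by their level in LNCaP/Empty, since the HIF12 arrays are no part of either group compared. In HIF12, R1881 raised 214 genes and lowered 49 against vehicle (1.07% and 0.244% of genes tested). Of the 214 raised genes, 119 were above Normal in LNCaP/Empty with R1881, 12 were below it and 39 lay within 1.5-fold of it by the whole 95% confidence interval. The other 44 were not placed. Those shares are 55.6%, 5.61%, 18.2% and 20.6%, beside 3.65% of all genes higher and 3.4% lower. The share of all genes within 1.5-fold was not counted, and 18633 of 20045 genes passed in neither direction. The 18.2% within 1.5-fold is therefore a description without a background.

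**Figure D2:**
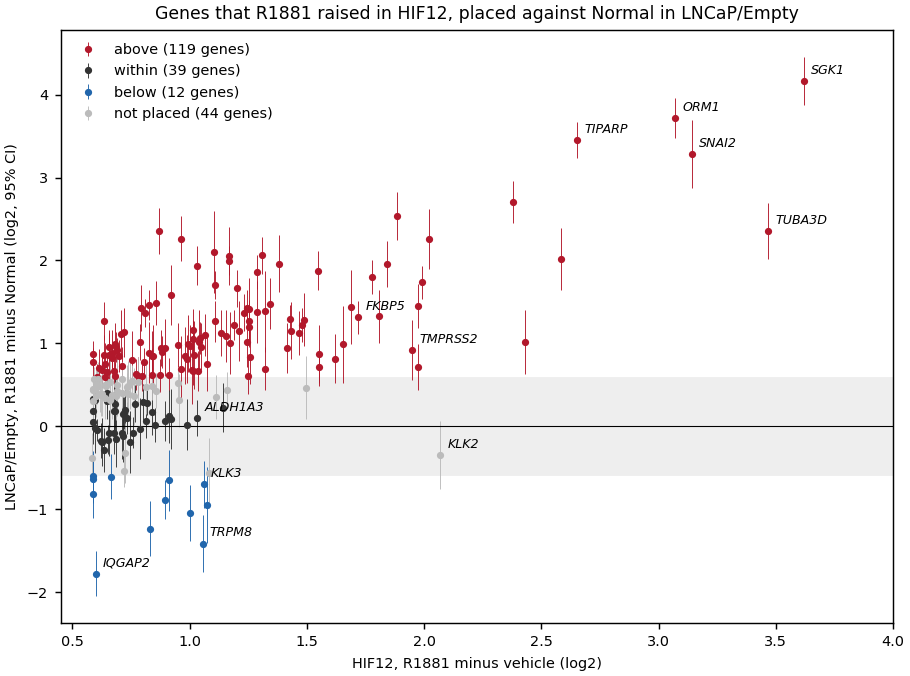
The 214 genes that R1881 raised in HIF12, with the HIF12 difference between R1881 and vehicle on the horizontal axis and the LNCaP/Empty difference between R1881 and Normal on the vertical axis, both log2. Points are genes, lines are 95% confidence intervals and the grey band is 1.5-fold either way. The 119 genes above Normal include SGK1, TIPARP and FKBP5, and the 12 below it include KLK3, TRPM8 and IQGAP2.

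Among the 119 genes above Normal, the largest HIF12 responses were those of SGK1, TUBA3D, SNAI2, ORM1 and TIPARP. TUBA3D, a tubulin, averaged 10.10 ± 0.15 with R1881, 5.69 ± 0.49 with vehicle and 7.75 ± 0.23 in Normal, and 5.12-fold above Normal counts signal that its near copies may share. The median difference of vehicle from Normal over the 119 genes was -0.16, and 22 of them were called lower with vehicle than in Normal, beside 2.93% of all genes.

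The 39 genes within 1.5-fold of Normal had a median difference of 0.09 with R1881, and vehicle was called lower than Normal in 24 of them, beside the same 2.93%. ALDH1A3, which makes retinoic acid, stood at 10.92, 11.26, 11.13, 11.08 and 11.13 with R1881 and averaged 9.95 ± 0.16 with vehicle, and Normal ran from 10.89 to 11.13. The R1881 and Normal arrays overlapped, and the interval of the difference was -0.12 to 0.31. HERC5, a ubiquitin ligase for the interferon-induced modifier ISG15, averaged 8.02 ± 0.23 with R1881, 6.82 ± 0.26 with vehicle and 7.80 ± 0.13 in Normal (-0.07 to 0.52). GNB4, a G protein subunit, averaged 6.25, 5.50 and 6.13 in that order. LAMA1 and RFX6, also among the 5 largest HIF12 responses of this class, were detected on no LNCaP/Empty R1881 or Normal array on the probe placed, which puts no measured level beside their class. PPFIBP2, a liprin and one of the genes named by the study, averaged 10.03 ± 0.13 with R1881, 9.24 ± 0.05 with vehicle and 9.97 ± 0.15 in Normal.

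All 12 genes below Normal were called lower with vehicle too, and their median difference from Normal was -0.85 with R1881 and -1.61 with vehicle. TRPM8, a cold-sensing channel of prostate epithelium, stood at 5.05, 5.88, 6.38, 6.22 and 6.07 with R1881, averaged 5.36 ± 0.18 with vehicle, and ran from 6.97 to 7.56 in Normal with a median of 7.35. All R1881 arrays were below all Normal arrays, by 2.67-fold. TARP, a T-cell receptor gamma transcript made in prostate cells, averaged 7.19 ± 0.16 with R1881, 6.03 ± 0.39 with vehicle and 8.14 ± 0.37 in Normal. The zinc finger factor KLF4 averaged 5.70, 4.94 and 6.75 and was detected on 2 of 5 R1881 arrays. HPGD, which inactivates prostaglandins, was at 5.19 ± 0.17 with R1881 and at 5.85 ± 0.56 in Normal, detected on 3 of 6 Normal arrays, and its call was lost without Normal replicate 2 or 3 (log2 -0.57 and -0.53). The vehicle and R1881 differences of all 4 classes share their Normal arrays. A gene that R1881 raises and that stays at or below Normal is lower still in vehicle. The vehicle counts of those classes therefore follow largely from how the genes were chosen.

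Of the 49 genes that R1881 lowered in HIF12, 12 were below Normal in LNCaP/Empty with R1881, 18 lay within 1.5-fold of it, 7 were above it and 12 were not placed. Those shares are 24.5%, 36.7%, 14.3% and 24.5%, beside 3.4% of all genes lower and 3.65% higher, with no share of all genes within 1.5-fold counted. BAMBI, a decoy receptor that dampens TGF-beta and BMP signals, stood at 10.62, 10.27, 10.76, 10.41 and 10.69 with R1881, averaged 11.87 ± 0.18 with vehicle, and ran from 11.65 to 11.94 in Normal. R1881 was 2.33-fold below Normal (adjusted p = 2.9e-12), with no overlap. VASN, which binds TGF-beta, averaged 8.85 ± 0.13 with R1881, 9.94 ± 0.13 with vehicle and 9.86 ± 0.11 in Normal. The transcription factor MYB averaged 6.11, 6.98 and 6.84 in that order, and the noncoding RNA MIMT1 was at least 1.28-fold below Normal. MAP3K8 was not detected on any of the R1881 or Normal arrays.

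Of the genes that R1881 lowered in HIF12, all 7 above Normal were called above it with vehicle too, beside 3.29% of all genes. A gene that R1881 lowers and that still lies above Normal is higher still in vehicle. The count of 7 therefore follows largely from how these genes were chosen. OPRK1, the kappa opioid receptor, stood at 8.17, 8.30, 8.49, 8.27 and 8.27 with R1881, averaged 9.95 ± 0.16 with vehicle, and ran from 7.16 to 7.76 in Normal. R1881 was 1.74-fold above Normal (adjusted p = 9.8e-07), without overlap. The OPRK1 call was lost at 1.48-fold without background correction and with the authors' normalized values. LTN1, a ubiquitin ligase of stalled ribosomes, averaged 9.13 with R1881, 10.27 with vehicle and 7.86 in Normal, the collagen COL5A2 averaged 7.00, 7.73 and 5.90, and SLITRK3, a synaptic adhesion protein, averaged 8.96, 9.92 and 8.19. IL36G, a cytokine, had a difference of 0.60 that was lost without R1881 replicate 3 or 5 or Normal replicate 2, 3 or 5 (0.47 to 0.58). Back within 1.5-fold of Normal were ZIC2, a zinc finger factor, at 10.06 ± 0.10 with R1881, 10.90 ± 0.13 with vehicle and 10.14 ± 0.07 in Normal, HOXC13, a homeobox factor, at 8.43, 9.61 and 8.73, and TMEM140, a membrane protein, at 7.17, 8.42 and 6.82. CCNG2, a cyclin of arrested cells, averaged 6.48, 7.24 and 6.46 on the probe placed, and IL1B was not detected on these arrays.

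Gene lists are given by role, and each count stands beside 3.65% higher and 3.4% lower among all genes. Among genes with a probe detected on every array of either group, the shares were 7.04% and 6.58%. Those shares are the nearer ones for lists of mostly detected genes, such as the androgen response genes with 83 of 91. Of 91 androgen response genes measured, 25 were higher than Normal, 15 lower and 51 did not pass, with a median difference of 0.06, which was -0.03 under median scaling. HSD17B14, a steroid dehydrogenase, was at least 2.08-fold higher, NDRG1 2.14-fold and the spermidine acetyltransferase SAT1 1.68-fold. Lower were IQGAP2, INSIG1, which restrains cholesterol synthesis, at least 1.44-fold, and ELOVL5, which lengthens polyunsaturated fatty acids, 1.60-fold. Of 22 secretory and surface proteins of the prostate, 6 were higher, TMPRSS2, SLC45A3, ORM1 and ORM2 among them, and 4 were lower, with MSMB, TRPM8 and KLK3.

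Of 17 targets that androgen and glucocorticoid receptors share, 9 were higher and 1 was lower, with a median of 0.60. ERRFI1, an inhibitor of the EGF receptor, averaged 11.43 ± 0.07 with R1881, 9.18 ± 0.18 with vehicle and 9.70 ± 0.09 in Normal, at 3.33-fold. The one lower gene, TSC22D3, a leucine zipper protein best known as a glucocorticoid target, is named after its value was seen.

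Of 19 genes that androgen is known to lower, 9 were higher than Normal and 3 were lower, with a median of 0.57 and UGT2B11 counted in both. UGT2B17, UGT2B15 and UGT2B11 encode enzymes that conjugate androgens with glucuronic acid. UGT2B17 stood at 14.19, 13.97, 14.05, 13.99 and 14.05 with R1881 and ran from 12.50 to 13.02 in Normal, while vehicle averaged 14.30 ± 0.18. It was 2.47-fold above Normal, and all R1881 arrays were higher. UGT2B15 averaged 7.83 ± 0.14 with R1881 and 6.90 ± 0.58 in Normal, with an adjusted p of 0.011, and UGT2B11 passed at 1.34 on 1 probe and at -0.74 on the other. The copies are similar in sequence and their probes may share signal. BCHE, butyrylcholinesterase, was 2.81-fold higher, at 12.09 ± 0.20 with R1881, 12.26 ± 0.23 with vehicle and 10.60 ± 0.16 in Normal. None of 16 genes for the receptor's cofactors passed in limma, although 11 had an unadjusted p under 0.05. Over all genes, 6333 of 20045 had an unadjusted limma p under 0.05 on the probe with the smallest p.

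**Figure D3:**
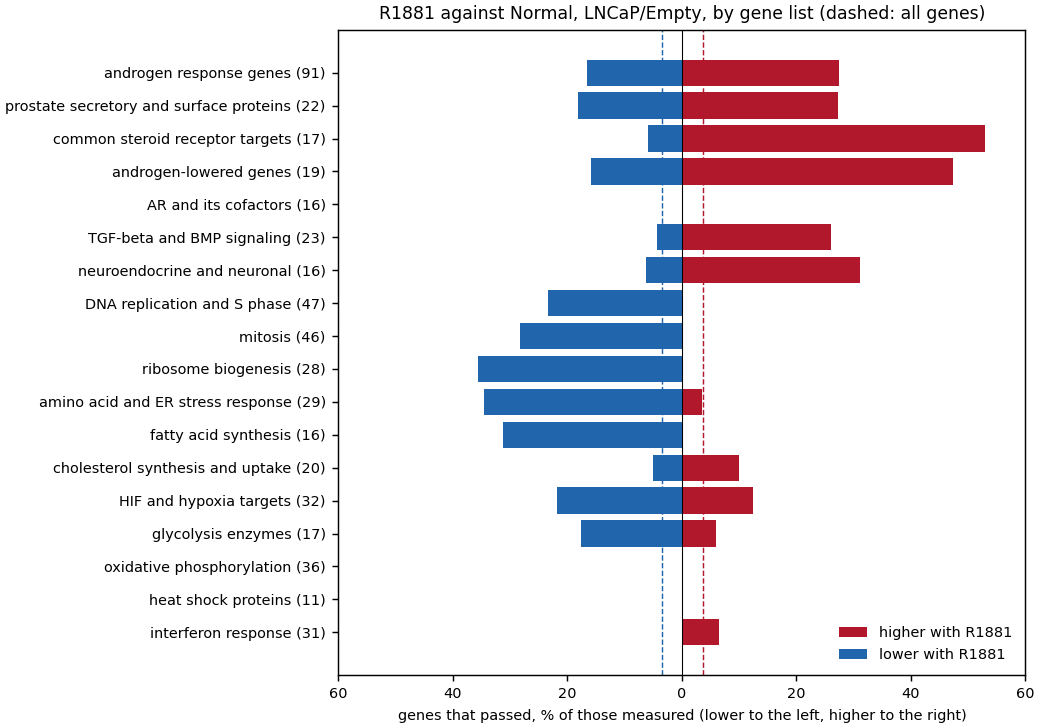
Share of measured genes that passed in LNCaP/Empty, R1881 against Normal, for 18 lists, with genes lower than Normal to the left and higher to the right. Numbers in brackets are genes measured and dashed lines mark 3.65% and 3.4% over all genes. Over genes detected on every array of either group, which are not marked, the shares are 7.04% and 6.58%. Replication, mitosis and ribosome biogenesis have lower genes and no higher one.

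Of the genes of growth, those that passed were lower than Normal. Of 47 genes of DNA replication, 11 were lower and none higher, with a median of -0.41, and of 46 genes of mitosis 13 were lower and none higher, with a median of -0.38. Vehicle minus Normal, which shares the Normal arrays, had medians of -0.42 for replication and -0.41 for mitosis. The medians of R1881 minus vehicle were 0.0003 and 0.008. CDT1, which loads the replicative helicase, averaged 8.58 ± 0.12 with R1881, 8.53 ± 0.18 with vehicle and 9.54 ± 0.17 in Normal, at 1.95-fold lower. MCM10, of the replication fork, was 1.77-fold lower, the polymerase subunit POLD1 1.78-fold and the helicase subunit MCM2 1.58-fold. HMMR and ANLN, of the spindle and of the cleavage furrow, were 1.77-fold and 1.76-fold lower, and the checkpoint kinase TTK was 1.71-fold lower. MKI67, the proliferation marker, was detected on 1 of 5 R1881 arrays and 4 of 6 Normal arrays, and its difference of -0.47 did not pass, though it passed at -0.61 without R1881 replicate 3. Under median scaling 20 of 47 replication genes and 19 of 46 mitosis genes were lower, against 5 and 8 without background correction.

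Of 28 genes of ribosome biogenesis 10 were lower and none higher, with a median of -0.48. NOP2, a nucleolar RNA methyltransferase, averaged 7.73 ± 0.13 with R1881, 8.14 ± 0.09 with vehicle and 8.83 ± 0.07 in Normal, at 2.14-fold lower, and LYAR and RRP12, both nucleolar proteins, were 2.04-fold and 1.68-fold lower. MYC, which drives such genes, stood at 10.10, 10.53, 10.28, 10.10 and 9.97 with R1881, averaged 10.83 ± 0.24 with vehicle, and ran from 10.85 to 11.63 in Normal. It was 2.14-fold below Normal, all R1881 arrays were lower and both of its probes passed. Of 29 genes of the amino acid and endoplasmic reticulum stress response 10 were lower and 1 was higher, with a median of -0.44. TRIB3, a pseudokinase of that response, was 2.39-fold lower and the amino acid transporter SLC7A5 2.14-fold, while VLDLR, a lipoprotein receptor, was 1.80-fold higher with overlapping arrays. Of 16 genes of fatty acid synthesis 5 were lower and none higher, with FADS2 1.72-fold, ACSL1 1.61-fold and ELOVL5. Vehicle minus Normal had medians of -0.37 for ribosome biogenesis, -0.42 for the stress response and -0.41 for fatty acid synthesis. The medians of R1881 minus vehicle were -0.11, -0.03 and -0.02 in that order. Under median scaling 9 of the 16 fatty acid genes and 16 of the 28 ribosome biogenesis genes were lower with R1881 than Normal, and without background correction 6 of the 29 stress response genes were. Of 20 genes of cholesterol synthesis, the sterol enzymes SC5D and TM7SF2 were 2.11-fold and 1.70-fold higher and INSIG1 was lower, and HMGCS1, an early enzyme of the pathway, averaged 10.75 ± 0.10 with R1881 and 10.69 ± 0.08 in Normal.

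Glycolysis and hypoxia genes went both ways. Of 17 glycolysis genes 3 were lower and 1 was higher. HK2, the inducible hexokinase, averaged 7.55 ± 0.12 with R1881, 7.63 ± 0.12 with vehicle and 8.99 ± 0.27 in Normal, at 2.70-fold lower, and the lactate dehydrogenases LDHA and LDHB were 1.60-fold and 1.79-fold lower. Of 32 HIF targets 7 were lower, with PLOD2, a collagen hydroxylase, 3.38-fold lower over a wide Normal range of 6.68 to 9.33, and 4 were higher, with IGFBP3 and NDRG1. NDRG1, which responds to hypoxia and androgen, averaged 11.19 ± 0.13 with R1881, 9.70 ± 0.20 with vehicle and 10.10 ± 0.38 in Normal. None of 36 genes of oxidative phosphorylation passed in limma, with a median of 0.01, which was -0.11 under median scaling, and 12 at an unadjusted p under 0.05. Of 11 heat shock genes none passed either, although 8 had an unadjusted p under 0.05. Both counts stand beside 6333 of 20045 genes with an unadjusted limma p under 0.05. The 12 of 36 oxidative phosphorylation genes are close to that share.

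Of 23 Notch genes 2 were higher and 2 lower, and of 14 feedback inhibitors of Ras and MAP kinase signalling 3 were higher and 2 lower. JAG1, a Notch ligand, stood at 8.71, 8.82, 8.83, 8.53 and 8.65 with R1881, averaged 7.08 ± 0.06 with vehicle, and ran from 6.08 to 6.81 in Normal with a median of 6.50. It was 4.79-fold above Normal (adjusted p = 6.3e-15), without overlap. HEY1, a Notch target gene, was detected on all R1881 arrays and no Normal array, at least 1.94-fold higher, while LFNG, which modifies Notch, had a difference of -1.05 with overlapping arrays. SPRED1, an inhibitor of Ras signalling, averaged 9.67 ± 0.17 with R1881, 8.28 ± 0.18 with vehicle and 8.24 ± 0.14 in Normal, at 2.69-fold, and LRIG1, which restrains receptor tyrosine kinases, was 2.34-fold higher. Of 23 TGF-beta and BMP genes 6 were higher and 1 was lower. ID1 and ID2, inhibitors of helix-loop-helix factors, were at 7.46 ± 0.54 and 8.24 ± 0.25 with R1881 and at 6.39 ± 0.72 and 6.98 ± 0.36 in Normal, and the lower gene was BAMBI. ID1 was detected on 4 of 6 Normal arrays, its arrays overlapped, and its call was lost on the compared arrays alone (adjusted p = 0.051). Of 25 immediate early genes 2 were higher, the transcription factors JUN and KLF6 at 2.58-fold and 3.17-fold, and 3 were lower, MYC and KLF4 among them. Of 11 genes of epithelial-mesenchymal transition 2 were higher, SNAI2 and TWIST1. TWIST1, a transcription factor named by the study, was 1.53-fold higher, and without R1881 replicate 1 or Normal replicate 5 it fell short at log2 0.57 and 0.58, as it did at 0.48 without background correction and with the authors' normalized values, at 0.49 under median scaling and at 0.51 with normexp and an offset of 50. Of 7 genes named by the study, KCNN2 was not analysed here, and of the 6 measured 5 were higher and PPFIBP2 did not pass, and since the study chose them on this series that count is not independent evidence.

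Of 16 neuroendocrine and neuronal genes 5 were higher, 3 under median scaling, and 1 was lower. NTS, the precursor of neurotensin, averaged 7.14 ± 0.22 with R1881 and 7.43 ± 0.32 with vehicle and was detected on no Normal array, which gives at least 2.35-fold. DDC was also among the higher genes and VGF was the lower one. VGF averaged 6.6 ± 0.11 with R1881 and 6.68 ± 0.36 with vehicle, against 8.48 ± 0.11 in Normal.

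Of 319 small nuclear and nucleolar RNA genes 15 were higher and 20 lower, and only 71 were detected on every array of either group, among them 5 of the SCARNA and 31 of the SNORD genes. Over all genes 3.65% were higher and 3.4% lower, and over genes detected on every array of either group 7.04% and 6.58%. The small RNA genes were grouped by symbol after their values were seen, so no test was made of the families. Of 24 SCARNA genes, small RNAs of Cajal bodies, 6 were higher and none lower, and of 13 RNU genes, which include spliceosomal RNAs, 3 were higher and none lower. Of 176 SNORD genes, box C/D RNAs that lie mostly within introns of host genes, 16 were lower and 1 was higher, and of 101 SNORA genes 4 were higher and 4 lower. SCARNA16 had a difference of 2.19 with R1881 and 2.25 with vehicle from Normal, and RNU4ATAC had 2.32 and 2.55. SNORD31 had -1.17 and -0.96, and SNORD4A had -1.11 and -0.90. These are signals at the probes, which may also read a host or precursor transcript.

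**Figure D4:**
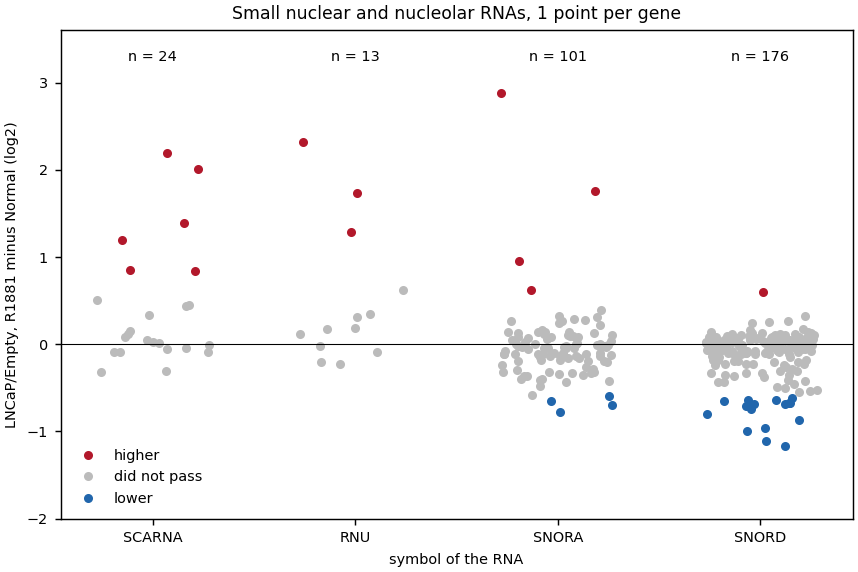
Difference between R1881 and Normal in LNCaP/Empty on a log2 scale for 24 SCARNA, 13 RNU, 101 SNORA and 176 SNORD genes, 1 point per gene. Genes higher are red and genes lower are blue. The SCARNA and RNU calls lie above 0 and 16 of the 17 SNORD calls lie below 0.

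HIF12 gave a second view of each difference from arrays that LNCaP/Empty does not share. In HIF12, R1881 left 882 genes above Normal and 624 below it (4.4% and 3.11% of genes tested). Of the 732 genes higher in LNCaP/Empty, 497 were higher in HIF12 as well, which is 67.9% of the first list and 56.3% of the second. Of the 682 lower genes 331 were lower in HIF12, 48.5% and 53% of the lists. HIF12 vehicle differed from HIF12 Normal in 766 genes higher and 544 lower (3.82% and 2.71%). Of the 732 higher genes 378 (51.6%) were among those 766 and 121 (16.5%) were among the 214 that R1881 raised in HIF12. Of the 682 lower genes 283 (41.5%) were among those 544 and 14 (2.05%) were among the 49 that R1881 lowered.

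The difference of R1881 minus Normal itself differed between HIF12 and LNCaP/Empty in 71 genes, higher in HIF12 for 45 and lower for 26 (0.224% and 0.13%). AGR2 averaged 8.51 ± 0.40 in HIF12 with R1881 and 7.97 ± 0.36 in HIF12 Normal (n = 5 each), but 7.66 ± 0.29 in LNCaP/Empty with R1881 and 9.58 ± 0.34 in Normal. The differences were 0.53 and -1.92, and they differed by 2.46 ± 0.25 SE (adjusted p = 6e-07). S100P had a difference of -1.58 in HIF12 and -2.97 in LNCaP/Empty, and the lines differed by 1.39 (adjusted p = 4.8e-04). MSMB was undetected with R1881 in either line, and Normal was at 6.17 ± 0.15 in HIF12 and 7.49 ± 0.13 in LNCaP/Empty, beside a fitted difference of 1.23 between the lines. Vehicle in HIF12 lay near R1881, at 8.46 ± 0.19 for AGR2 and 7.33 ± 0.30 for S100P, and MSMB was undetected there. R1881 minus vehicle in HIF12 was 0.04 for AGR2 and -0.17 for S100P, and neither passed. For AGR2, vehicle minus Normal was 0.49 in HIF12 and -1.45 in LNCaP/Empty.

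SCARNA14, SCARNA21, SCARNA23 and SCARNA20 were detected on all 5 HIF12 R1881 arrays, at means of 8.35, 7.58, 7.10 and 6.94, and on no HIF12 Normal array. They were also detected on all 5 HIF12 vehicle arrays, at means of 7.75, 7.55, 7.01 and 6.82. None of them passed between R1881 and vehicle in HIF12. On the R1881 arrays of LNCaP/Empty they were detected on 4, 1, 0 and 0 of 5, and in Normal SCARNA14 was detected on 1 of 6 arrays and the others on none. The sizes of these differences are therefore uncertain. In LNCaP/Empty, SCARNA14 lost its call without R1881 replicate 2, 3 or 4 or Normal replicate 3, 4, 5 or 6 (fitted 0.71 to 0.82). SCARNA14 also lost it with the replicate block (0.79), under median scaling, with no background correction, with normexp and an offset of 50, and with the authors' normalized values. THBS1, a matrix protein that activates TGF-beta, was detected on all R1881 arrays of LNCaP/Empty and on none of its Normal arrays, at least 1.60-fold higher, and on no HIF12 R1881 or Normal array. FAM110B, a centrosome protein, showed the same with at least 1.22-fold, and both differed between the lines in the fit (adjusted p = 9.2e-05 for THBS1 and 3.2e-04 for FAM110B). UGT2B17 was above Normal by 2.15 log2 units in HIF12 and by 1.30 in LNCaP/Empty, which differed by 0.85 (adjusted p = 0.0055). With vehicle, UGT2B17 was above Normal by 2.38 in HIF12 and by 1.55 in LNCaP/Empty.

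**Figure D5:**
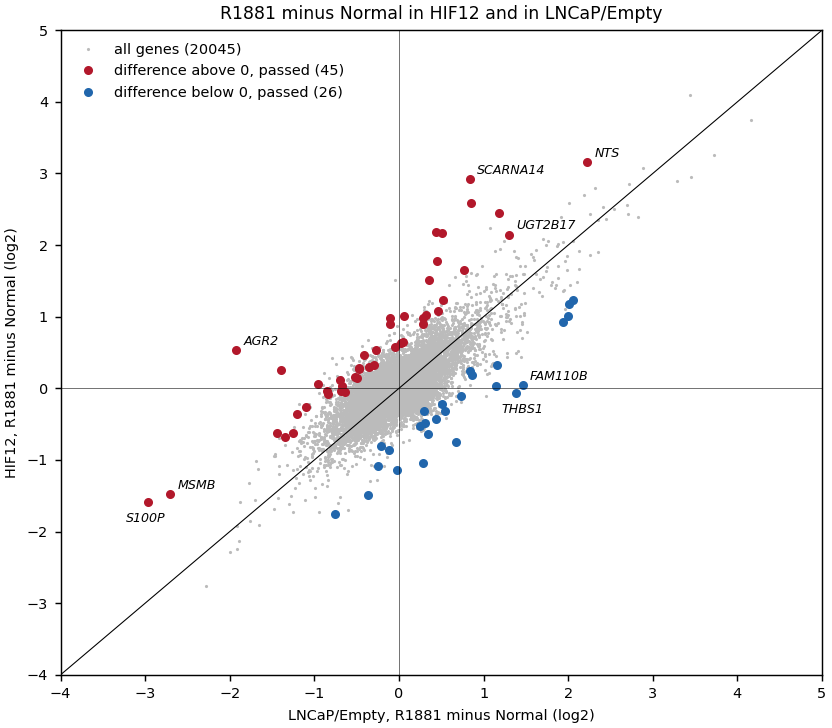
Difference between R1881 and Normal (log2) in HIF12 on the vertical axis and in LNCaP/Empty on the horizontal axis for 20045 genes, with the line of equality. Red and blue points are the 45 and 26 genes whose difference passed as higher and lower in HIF12. AGR2 lies at 0.53 in HIF12 and -1.92 in LNCaP/Empty.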

How the data were processed

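The arrays were Illumina BeadArrays. The study's methods name HumanWG BeadArrays, and probes were named from the platform table used here. The scanner software is not given in the sources used here. The deposited scanner intensities are per probe with a detection p-value, neither background corrected nor normalized. A second table deposited by the authors holds quantile normalized intensity values on a linear scale. The detection p-values deposited per probe set detection at under 0.01. The study's methods use LIMMA on corrected, normalized log2 values, and how it corrected and normalized them is not given in the sources used here.

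Of 48107 probes, 30113 carried 1 gene name, 8 several and 17986 none, and 30074 of the names matched RefSeq. Missing values took out 2 probes. Background was removed by the function nec (offset 16; limma 3.58.1 under R 4.3.3), and the intensities were quantile normalized over 36 arrays and log2 transformed. A model with 1 mean for each of 7 groups was fitted to all arrays with lmFit and eBayes and p-values were adjusted by Benjamini-Hochberg over all probes. All adjusted p-values come from limma. A bound ("at least") sets the higher group's mean against, per array, the larger of the probe's own value and the lowest value of a detected probe. With few arrays a group, their number limits the precision. Tested on simulated data of this comparison with 48105 probes, 36% of 1.5-fold and 98% of 2-fold changes passed, all placed in probes detected on at least 5 arrays.

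Genes named in the text were the 10 largest increases and decreases without overlap of arrays, up to 3 passing members of each list, a fixed set of androgen and growth genes, the genes named by the study, the 5 largest HIF12 responses of each class of placement and the 5 largest differences between lines in each direction. The members, lists and rules were chosen with earlier results of these data known. The same replicate numbers were not treated as pairs. Alternatives were no background correction, normexp with an offset of 50, median and cyclic loess scaling, the authors' normalized values, array weights, only the compared arrays, only probes detected on at least 5 arrays, running-number blocks of 6 and 12 arrays, a replicate block and each array left out.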

Additional observations from a re-analysis of the deposited data

Results flagged for a closer look

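Of 246 sets of arrays (123 genes in 2 groups), 14 held an array that stood apart from the others of its group at Dixon's 95% critical value, which flags about 1 in 20 by chance. On the R1881 arrays of LNCaP/Empty, replicate 1 was apart for SNAI2 (8.61, against 8.93 to 9.00 on the others), TTK (8.30, others 8.73 to 8.85), FADS2 (8.15, others 7.66 to 7.80), NDRG1 (11.42, others 11.12 to 11.17) and VLDLR (7.60, others 8.13 to 8.28). Replicate 3 was apart for GREB1, an estrogen and androgen target (6.38, others 6.75 to 6.82), and replicate 4 for BRDT (8.84, others 8.17 to 8.29) and SCARNA21 (6.11, others 5.70 to 5.78). On the Normal arrays, replicate 3 was apart for ACTA2 (10.64, others 10.21 to 10.36), replicate 4 for ACSL1 (10.65, others 10.99 to 11.14), ELOVL5 (12.02, others 12.47 to 12.72) and UGT2B15 (5.79, others 6.85 to 7.46), and replicate 6 for LAMA1 (4.92, others 4.58 to 4.70, all undetected) and TMEM140 (6.51, others 6.83 to 6.92). UGT2B15 was at 0.71 without Normal replicate 4.

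The difference of R1881 minus Normal differed between HIF12 and LNCaP/Empty, by the limma test of that difference, in these named genes. It was higher in HIF12 for AGR2 by 2.46, SCARNA14 by 2.08, SCARNA21 by 1.74, SCARNA23 by 1.74, SCARNA20 by 1.65, S100P by 1.39, MSMB by 1.23, NTS by 0.93, UGT2B17 by 0.85, the metallothionein MT2A by 0.66 and TRIB3 by 0.63. The values of the SCARNA genes, MSMB, NTS, FAM110B and THBS1 are fitted ones against groups that were not detected, so their size is uncertain. It was lower in HIF12 for OASL with -1.13, GSTA2 with -1.33, FAM110B with -1.42, GPRASP2 with -1.42 and THBS1 with -1.45. OASL, an interferon-induced protein, was at 4.93 ± 0.17 in HIF12 with R1881 and 6.43 ± 0.27 in HIF12 Normal, and at 5.03 ± 0.24 and 5.40 ± 0.39 in LNCaP/Empty. GSTA2, a glutathione transferase, was at 6.62 and 7.67 in HIF12 with R1881 and in Normal on the probe that passed, and at 7.74 and 7.46 in LNCaP/Empty. Another GSTA2 probe passed as lower in LNCaP/Empty (-0.73), detected on no R1881 and 2 of 6 Normal arrays, and did not differ past the threshold between the lines (-0.14). GPRASP2, which sorts receptors, was at 5.34 and 6.09 in HIF12 and at 6.04 and 5.38 in LNCaP/Empty. In LNCaP/Empty alone it lost its call without R1881 replicate 1, 2 or 3 or Normal replicate 5 (0.60 to 0.63). The OASL means in HIF12 with R1881 and in LNCaP/Empty lay under the lowest value of a detected probe on those arrays. So did the GPRASP2 means in HIF12 with R1881 and in LNCaP/Empty Normal. The sizes of the OASL and GPRASP2 differences are therefore uncertain too.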

How the results depend on the processing

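Leaving out 1 array at a time gave 708 to 754 genes higher and 653 to 737 lower, 115 to 133 HIF12-raised genes above Normal and 8 to 13 below it, and 48 to 73 genes that differed between the lines. Without background correction the counts were 368 higher, 252 lower, 69 above and 3 below, and from the authors' normalized values 367 were higher, 252 lower, 69 above and 3 below. With normexp and an offset of 50 they were 413 higher, 295 lower and 4 below. Median scaling gave 1071 lower and 111 that differed between the lines, and 139 differed with array weights and 152 on the compared arrays alone. The cause of these shifts was not tested. The replicate numbers did not pair the arrays (same-numbered arrays correlated at -0.193 to 0.0003 in their deviations, and 0 of 5 correlated best with their own number). With a replicate block the counts were 713 higher, 695 lower, 119 above, 10 below and 58 that differed, and of the 123 named genes only SCARNA14 lost its call (0.79). Of 123 named genes 104 had passed, 74 of them under every setting, and no passing difference changed sign. Calls lost both without background correction and with the authors' normalized values included those of KLF4, HPGD, MYB, MIMT1 and OPRK1. Others lost under both were COL5A2, IL36G, INSIG1, POLD1, MCM2, UGT2B15, VLDLR, LFNG and GREB1. Of 2701 values of single genes under the settings, 2592 kept their side of the threshold, 107 lost the call and 2 gained it. Fitted differences of genes not detected on most arrays of a group are uncertain in size.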

Other observations

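Smaller lists held a few more genes away from Normal with R1881. Of 8 metallothioneins 2 were lower, MT2A 2.54-fold at 10.98 ± 0.08 with R1881 and 12.33 ± 0.26 in Normal, and MT1X 1.93-fold, while MT3 was at 5.51 ± 0.48 and 4.82 ± 0.22 and fell short without R1881 replicate 1 (0.50). Of 8 genes of sterol efflux 2 were higher, LPCAT3 1.68-fold and ABCG1 1.57-fold, and ABCG1 was higher with vehicle at 7.14 ± 0.27, against 6.39 ± 0.14 with R1881 and 5.74 ± 0.09 in Normal. Of 31 interferon genes 2 were higher, IFI35 1.64-fold and B2M 1.55-fold, the second of which fell to the threshold without R1881 replicate 4 (1.5-fold) and was at 1.44-fold under median scaling. Of 11 polyamine genes, with a median difference of 0.04 that was -0.03 under median scaling, SAT1 was higher and SRM, spermidine synthase, was 1.56-fold lower.

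Of 8 targets of the aryl hydrocarbon receptor 3 passed as higher. TIPARP is described above. CYP1A2 averaged 5.87 ± 0.14 with R1881 and 5.91 ± 0.38 with vehicle, against 4.64 ± 0.10 in Normal, detected on 2 of 5 R1881 arrays, and CYP1A1 was detected on no R1881 and no Normal array. Of 23 growth arrest genes 5 were higher and 2 lower, with SESN1, a stress-induced brake on mTOR signalling, 1.89-fold higher at 11.31 ± 0.11 with R1881 and 11.57 ± 0.13 with vehicle, against 10.39 ± 0.16 in Normal. CDKN1A was detected on none of these arrays. Of 14 targets of thyroid hormone, vitamin D and estrogen receptors 4 were higher, GREB1 1.79-fold among them, and 2 were lower, with BCL3 1.81-fold and THRSP, detected on no R1881 array and on 1 of 6 Normal arrays, for which no size is given. Of 10 retinoid targets DHRS3, a retinal reductase, was 1.59-fold lower, and it fell short without R1881 replicate 4 (log2 -0.55). KRT8, a keratin of luminal cells, was 1.71-fold higher at 11.24 ± 0.12 with R1881 and 10.46 ± 0.16 in Normal.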
